A study of Homo sapiens with 4 samples.

Results

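Death receptors are cell surface proteins that pass a killing signal into the cell when their ligand binds. TNFRSF10A and TNFRSF10B are the death receptors for the ligand TRAIL, and TNFRSF10C and TNFRSF10D bind TRAIL but lack a working death domain and act as decoys. FAS is the receptor for FAS ligand, and PIDD1 is an intracellular death domain protein that helps to activate caspase-2. All have been described as targets of p53, and FAS carries a well-studied p53 response element near its start. The 6 genes were taken with every p53 peak that lay inside or within 50 kb of their RefSeq gene span, and each peak was given to the nearest of the 6. This rule found 1 of the 2008 peaks in the R273H list (exact 95% Poisson interval for the number 0.0253 to 5.57) and 2 of the 2059 peaks in the wildtype list (0.242 to 7.22). The rule used positions only and no score.

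The peaks came from chromatin immunoprecipitation with sequencing (ChIP-seq) in HCT116, an established colorectal carcinoma cell line, grown as spheroids with epidermal and basic fibroblast growth factor. The mutant cells were labelled p53-R273H, a substitution of an arginine that contacts DNA, and the others wildtype control. No agent that activates p53 is named in the labels for either genotype, and the way R273H was introduced or whether a line is 1 clone is not given there. Each genotype had 1 ChIP library, made with the p53 antibody DO-1, and 1 input library. The lists do not tell how deeply the libraries were sequenced. With a single library a genotype, R273H and wildtype can only be set side by side, and intervals cover counting error alone. A gene without a peak had none in the list used here. The lowest listed score was 50.02 for R273H and 50.01 for wildtype, and a missing peak does not show that p53 was absent. Peak lists of 1 factor hold no markers by which the cell type could be checked.

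Start-site sequences are shown for the members found in the RefSeq promoter table of GRCh38.p14 (the build hg38), because they let a p53 motif be set beside the presence or absence of a peak. FAS matched with 3 windows of 300 bases and PIDD1 with 1. The windows run from 250 bases before to 50 bases after an annotated start. The p53 half-site consensus (purines, a C, A or T bases, a G, then pyrimidines, read on both strands) was searched in each. No mismatch was allowed, and capitals mark a match. In the FAS window at chr10:88991181-88991480 (plus strand) 1 match was found, at bases 129 to 138 counted from the 5′ end. The other FAS windows and the PIDD1 window at chr11:805182-805481 (minus strand) held none. The window of AEN, an apoptosis-enhancing nuclease gene at chr15:88621090-88621389 (plus strand), is given as a comparison because a peak of each list covered its match; it was chosen after its values were seen.
FAS: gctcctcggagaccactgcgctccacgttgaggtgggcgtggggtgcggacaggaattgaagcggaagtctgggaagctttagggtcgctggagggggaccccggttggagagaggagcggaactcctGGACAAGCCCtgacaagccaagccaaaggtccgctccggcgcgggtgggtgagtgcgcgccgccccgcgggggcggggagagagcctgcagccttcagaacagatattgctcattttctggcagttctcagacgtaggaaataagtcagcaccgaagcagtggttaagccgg
PIDD1: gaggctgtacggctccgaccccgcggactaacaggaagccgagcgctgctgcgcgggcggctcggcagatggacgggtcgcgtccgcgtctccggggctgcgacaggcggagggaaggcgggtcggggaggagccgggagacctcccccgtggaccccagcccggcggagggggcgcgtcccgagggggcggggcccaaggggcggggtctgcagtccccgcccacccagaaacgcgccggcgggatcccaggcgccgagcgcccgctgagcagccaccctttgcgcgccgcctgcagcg
AEN: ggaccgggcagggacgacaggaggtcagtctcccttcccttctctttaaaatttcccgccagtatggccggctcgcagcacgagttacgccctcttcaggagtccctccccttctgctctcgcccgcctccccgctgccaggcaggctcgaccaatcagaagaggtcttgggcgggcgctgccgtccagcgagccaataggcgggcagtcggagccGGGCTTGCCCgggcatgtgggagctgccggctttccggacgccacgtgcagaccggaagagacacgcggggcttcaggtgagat
A half-site match was present in 2321 of 34943 RefSeq windows of this length, 6.64%. A full site was counted as a pair of half-site matches with at most 13 bases between them. It was present in 10 of the 34943 windows, 0.0286%, and in none of the FAS, PIDD1 or AEN windows. A full site with mismatched bases would not have been counted, so these windows may still hold one. Directly after the FAS match, the bases tgacaagcca depart from the half-site consensus only at the first and the last base. Directly after the AEN match, gggcatgtgg departs only at the G bases that close it. How many RefSeq windows hold such a mismatched pair was not counted. Peaks also covered windows without a match. Of 14 windows of 12 mitochondrial apoptosis genes, those of AEN and TRIAP1 met a peak of each list and that of BBC3 a wildtype peak only, and of these AEN alone held a half-site match. The share of all RefSeq windows that meet a peak was not computed. The gene list was also chosen with earlier results of these data known, so the window counts show no excess.

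Among the TRAIL death receptors, TNFRSF10B carried a peak in both genotypes and TNFRSF10A in neither. With only peaks scoring at least 100, the wildtype TNFRSF10B peak was kept and the R273H peak was not, so 0 R273H and 0 shared peaks were left at the 6 genes. The R273H peak in TNFRSF10B lay at chr8:23068478-23068691 and was 214 bp wide. The wildtype peak lay at chr8:23068394-23068768 and was 375 bp wide. The R273H peak lay wholly inside the wildtype peak and covered 57.1% of it, and their midpoints were 3.5 bp apart. Peaks with at least 1 bp in common were called shared. Of the 440 shared R273H peaks, 260 (59.1%) were likewise enclosed by a wildtype peak and 82 (18.6%) had a wildtype midpoint within 10 bp. Both peaks sat at the higher-coordinate end of the gene, which spans 23020133 to 23069031 and is 48.9 kb long. The R273H peak ended 340 bp inside that end and the wildtype peak 263 bp inside it. The same bases belong to TNFRSF10B-AS1, a transcribed pseudogene that starts at 23068229 and overlaps the end of TNFRSF10B.

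The TNFRSF10B peak scored above the median of both lists and below the median of the shared peaks of both. Scores are the authors' own, were given separately for each list, and are read here only as places within a list. The R273H score of 76.23 ranked 615 of 2008, above 69.4% of that list, whose median was 61.9. The wildtype score of 185.55 ranked 381 of 2059, above 81.5% of that list, whose median was 64.9. Its R273H peak outscored 25.5% of the 440 shared R273H peaks (median 143) and its wildtype peak 27.5% of the 437 shared wildtype peaks (median 396). Few peaks of its R273H score had a partner. Of the 332 R273H peaks within 10 score units of it, 44 were shared, 13.3% (95% exact binomial interval 9.80 to 17.4). Among 17 wildtype peaks within 10 units of the wildtype score, 7 were shared, 41.2% (18.4 to 67.1). At any score, the shared part was 21.9% for R273H and 21.2% for wildtype.

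TNFRSF10A, the other receptor with a death domain for TRAIL, spans chr8:23190452-23225102. Its nearest R273H peak was the TNFRSF10B peak, 121.76 kb away, and its nearest wildtype peak was the TNFRSF10C peak, 87.1 kb away. On its other side the next R273H peak lay at a distance of 139 kb (score 58.67) and the next wildtype peak at 5515 kb (51.45).

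Among the decoy receptors, TNFRSF10C carried a peak in the wildtype list only and TNFRSF10D in neither list. The wildtype TNFRSF10C peak lay at chr8:23103208-23103354, 287 bp inside the lower-coordinate end of a gene that spans 23102921 to 23117445. It was 147 bp wide, narrower than the wildtype median of 324 bp, and only 18.2% of wildtype peaks were narrower still. Its score of 60.64 ranked 1208 of 2059, above 40.7% of the wildtype list. It had no R273H partner, and few peaks of its score had one. Of 1107 wildtype peaks within 10 score units, 46 were shared, 4.16% (3.06 to 5.50). The nearest R273H peak to TNFRSF10C was again the TNFRSF10B peak, 34.2 kb away. TNFRSF10D, at chr8:23135588-23164027, lay 66.9 kb from the nearest R273H peak and 32.2 kb from the nearest wildtype peak, which was the peak inside TNFRSF10C and was counted there.

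**Figure D1:**
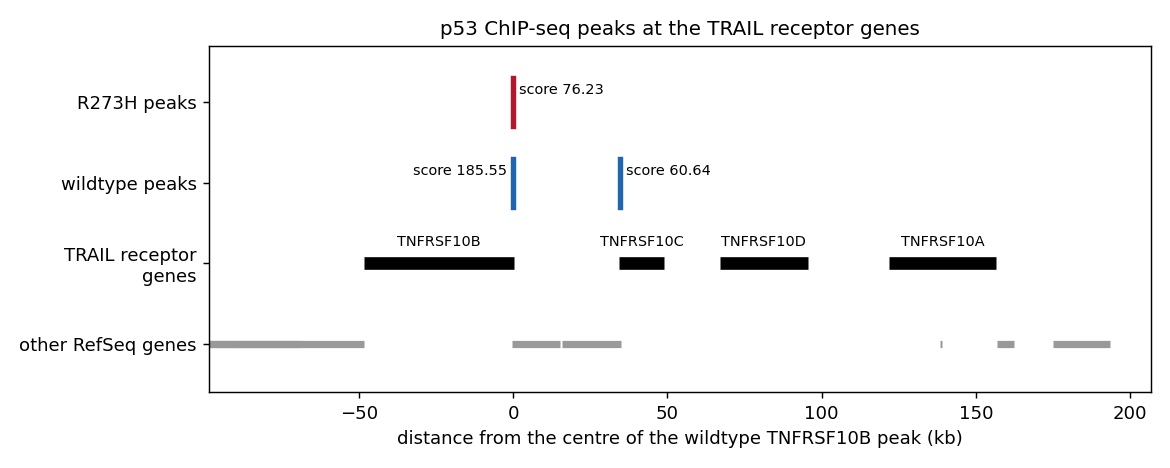
Peaks of the R273H list (top row) and the wildtype list (second row) over the 4 TRAIL receptor genes, with other RefSeq genes in grey, against distance in kb from the centre of the wildtype TNFRSF10B peak; numbers beside the marks are the authors' scores and peak marks are widened to be visible. The only R273H peak stands at the wildtype TNFRSF10B peak, and the wildtype list has a further peak 34.4 kb away at TNFRSF10C.

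The TRAIL receptor cluster spans 205 kb, and the genes are neighbours, so peaks there are not independent of each other. In the map of the cluster, both wildtype peaks stood at the end of a receptor gene where a second RefSeq gene overlapped it. At TNFRSF10C this was the long noncoding RNA gene LOC254896, which ended 204 bp beyond the peak. In all, 102 of 2008 R273H peaks (5.08%) and 194 of 2059 wildtype peaks (9.42%) overlapped more than 1 RefSeq gene. Of the peaks that overlapped a protein-coding gene, 64 of 447 R273H peaks (14.3%) and 94 of 721 wildtype peaks (13.0%) lay within 1 kb of an end of such a gene, as did the 1 R273H and both wildtype peaks here. With so few peaks this is a description of these sites and no trend.

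**Figure D2:**
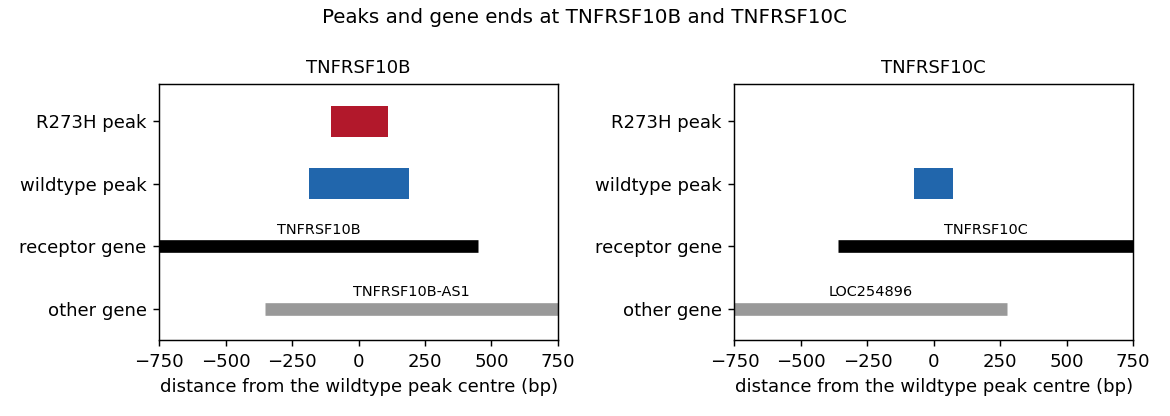
Peaks at TNFRSF10B (left) and TNFRSF10C (right), with the R273H peak above the wildtype peak and the gene spans below, against distance in bp from the wildtype peak centre. The R273H peak of 214 bp lies within the wildtype peak of 375 bp at TNFRSF10B, and at TNFRSF10C there is a wildtype peak of 147 bp and no R273H peak.

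FAS and PIDD1 had no peak in either list. For FAS (chr10:88964050-89017059) the nearest peak was 1121 kb away for either genotype. It was a shared site, in the pseudogene CFL1P1, at chr10:87843022-87843495 in the R273H list (score 442.66) and chr10:87843000-87843518 in the wildtype list (936.91). The FAS half-site match printed above, at chr10:88991309-88991318, was thus far from any listed peak, whereas the AEN match at chr15:88621306-88621315 lay inside a peak of each list. AEN was the exception here, since the other windows of the lists with a match, at CASP8, TNFSF15 and BAK1, had no peak over them either. For PIDD1 (chr11:799184-809501) the nearest R273H peak was 134 kb away, in DEAF1, with a score of 58.34 and no wildtype partner. The nearest wildtype peak was 413 kb away, 2796 bp from B4GALNT4, with a score of 267.81, and overlapped an R273H peak. Peak numbers on both sides of each of the 6 genes ran on without a gap in each list, so no numbered peak was missing between the listed neighbours.

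**Figure D3:**
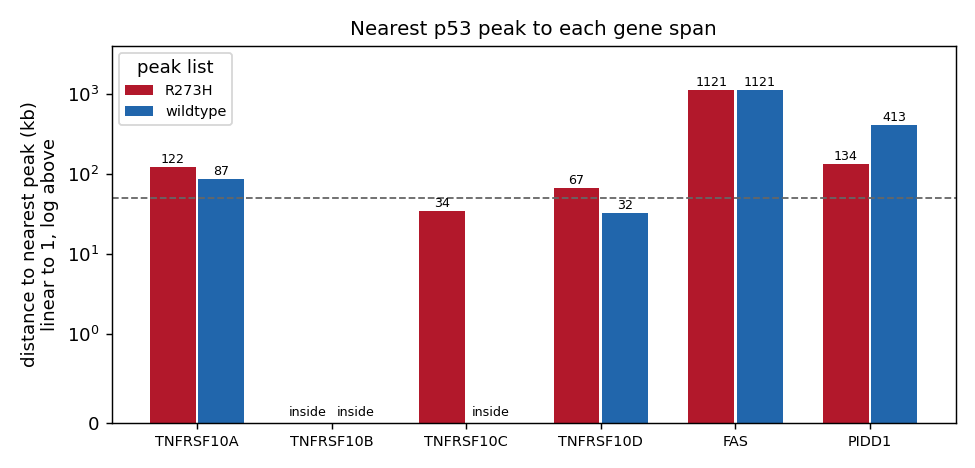
Distance in kb from each gene span to its nearest peak in the R273H list (left bar of each pair) and the wildtype list (right bar), on an axis that is linear up to 1 kb and logarithmic above; the dashed line marks 50 kb. Peaks lie inside TNFRSF10B in both lists and inside TNFRSF10C in the wildtype list, and FAS is the farthest from any peak in both lists.

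With each peak given to its nearest gene, R273H peaks fell to 1 of the 6 genes (16.7%, exact binomial interval 0.421 to 64.1) and wildtype peaks to 2 (33.3%, 4.33 to 77.7). Over all 20037 protein-coding genes, 6.50% lay within 50 kb of an R273H peak and 10.5% within 50 kb of a wildtype peak. These shares count a peak for every gene in reach, and counted that way 2 of the 6 genes were near an R273H peak and 3 near a wildtype peak, TNFRSF10C being added in the R273H list and TNFRSF10D in the wildtype list. TNFRSF10B and TNFRSF10C were then in reach of a peak of both lists, beside 3.07% of protein-coding genes, TNFRSF10D of a wildtype peak only, beside 7.44%, and none of an R273H peak only, beside 3.43%. For peaks inside the gene the counts were 1 of 6 for R273H, beside 2.08% of protein-coding genes, and 2 of 6 for wildtype, beside 3.24%. Counts of 1 and 2 genes, drawn from a single cluster, are too few to set the 6 genes apart from the rest. All 3 peaks lay inside a gene of the group, and the next peak beyond the 50 kb limit was the R273H peak 134 kb from PIDD1, so the counts per nearest gene were the same at each distance tried from 0 to 100 kb.

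The rest of the extrinsic pathway carried no R273H peak and a few wildtype peaks, all with scores under 100. A list of 32 ligands, receptors, adaptors, caspases and inhibitors was used, and all matched the gene table. Within 50 kb, 0 of the 32 had an R273H peak (interval 0 to 10.9%), beside 6.50% of protein-coding genes, and 6 had a wildtype peak (18.8%, interval 7.21 to 36.4), beside 10.5%. Both intervals include the share over all protein-coding genes. They treat the genes as independent, which BIRC2 and BIRC3, counted through the same wildtype peak, are not. The list was also chosen with earlier results of these data known. Within 50 kb, none of the 5 ligand genes, among them TNFSF10 (TRAIL) and FASLG (FAS ligand), had a peak in either list. The same held for the 6 other death receptor genes and both soluble decoy receptor genes. With shares of 6.50% and 10.5%, most protein-coding genes had none either, so these absences do not set the genes apart. The highest wildtype score was at CASP8, a caspase of the death receptor pathway, with a peak inside the gene at chr2:201286604-201286921 (78.62, above 64.5% of the list). A single peak inside BIRC3, an inhibitor of apoptosis gene, lay at chr11:102319877-102320070 (56.88) and was also 27.1 kb from its neighbour BIRC2. The peak counted for TRADD, the adaptor of the TNF receptor, lay 2.14 kb outside it and inside FBXL8 (57.36). The peak counted for RIPK1, a kinase of the same receptor complex, lay 35.96 kb away (56.17). The peak counted for TRAF2, a signalling adaptor, lay 32.5 kb away inside PHPT1 (53.69). No R273H peak lay within 50 kb of these genes, so none of these 5 wildtype peaks could overlap one.

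By contrast with TNFRSF10B, the highest-scoring peaks of the mitochondrial apoptosis genes that had a peak mostly stood higher within each list. Where a gene had more than 1 peak, only the highest-scoring one was placed. The list of 13 such genes was chosen with earlier results of these data known, so its counts do not measure enrichment. Of these, 5 lay within 50 kb of an R273H peak, beside 6.50% of protein-coding genes, and 5 of a wildtype peak, beside 10.5%. Peaks of both lists were in reach of 4, beside 3.07%. No peak of either list lay within 50 kb of 7 of the 13, and most protein-coding genes had none either. BBC3, the gene of the BH3-only protein PUMA, stood above 92.8% of the R273H list and 95.8% of the wildtype list. AEN, the nuclease gene in this list, stood above 96.2% of the R273H list and 95.7% of the wildtype list. TRIAP1, a p53-regulated apoptosis inhibitor gene, stood above 88.3% of R273H and 92.0% of wildtype peaks. BCL2L1, an anti-apoptotic BCL2 family gene, stood above 90.9% of R273H and 87.2% of wildtype peaks. All 4 were placed above TNFRSF10B, which stood at 69.4% among R273H and 81.5% among wildtype peaks. BAX, a pore-forming protein gene, had a wildtype peak only, above 83.0% of that list and so close to TNFRSF10B. BAK1, its relative, had an R273H peak only, 9.48 kb outside the gene and above 31.2% of that list. With 1 library per genotype and 1 peak to compare, the difference in place between TNFRSF10B and these genes was not tested.

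**Figure D4:**
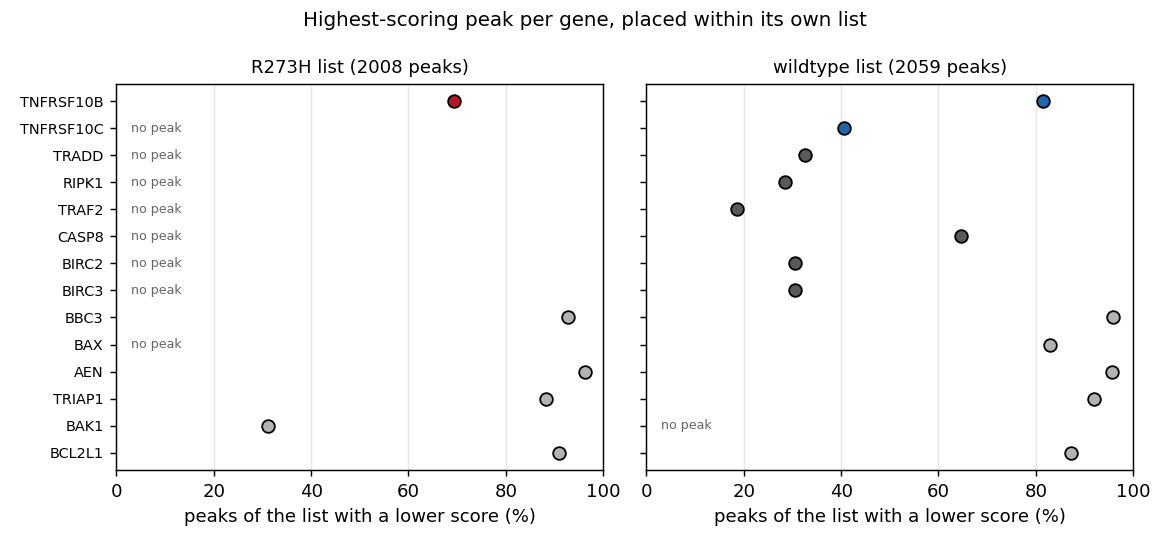
Percent of the peaks of a list that score lower than the highest-scoring peak of each gene, in the R273H list (left) and the wildtype list (right); coloured points are TNFRSF10B and TNFRSF10C by nearest gene, dark grey the extrinsic pathway genes and light grey the mitochondrial apoptosis genes, and each point is a single peak with no replicate. TNFRSF10B stands at 69.4% for R273H and 81.5% for wildtype, below BBC3, AEN, TRIAP1 and BCL2L1 in both.

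The wider receptor family was looked up by symbol after the values were seen. Of 21 protein-coding genes named TNFRSF with a number, 5 lay within 50 kb of an R273H peak, beside 6.50% of all protein-coding genes, and 3 of a wildtype peak, beside 10.5%. Several of them are neighbours that share a peak, so they are not independent. The TRAIL receptors made up all 3 in the wildtype list, where TNFRSF10B, TNFRSF10C and TNFRSF10D lay in reach of the 2 peaks described. In the R273H list TNFRSF10B and TNFRSF10C shared 1 peak, and the others were TNFRSF4 and TNFRSF18, T cell costimulatory receptor genes that lay in reach of the same 2 peaks on chromosome 1 (highest 304), and TNFRSF19 (71.6). Peaks of both lists were in reach of 2 of the 21, TNFRSF10B and TNFRSF10C, beside 3.07% of protein-coding genes, and both were counted through the same R273H peak.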

How the data were processed

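In all, 4 libraries were made, p53 ChIP and input for R273H and for wildtype HCT116 spheroid cells. Per the submitters' processing notes, the tools were Bowtie 1.2.2, MACS and HOMER on hg38, with no roles stated. The peak threshold and the part played by the input are not stated. The deposited peak lists give position, name and the authors' score per peak, on a scale not given. Each list was matched by name to a ChIP sample title, since the sample descriptions name the lists otherwise. Peak numbers began at 193 for R273H and 228 for wildtype. Peaks with lower numbers were not in the lists used here, so their places and scores are unknown. Gene spans came from RefSeq GRCh38.p14, the same assembly as hg38, which gave no strand or exons for this use, so intron and exon are not stated. Promoter windows came from RefSeq on the same build.

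A peak overlapping a gene or at most 50 kb from it was counted, and peaks overlapping by at least 1 bp were called shared. Binomial intervals are Clopper-Pearson. No p-value was computed with 1 library per genotype. Counting was tested on simulated data. Members and lists were chosen with earlier results of these data known. All 6 genes and their peaks are named, with every pathway gene that had a peak. Alternatives were other distances, score filters and definitions of a shared peak. Python 3.11.15, pandas 2.3.3 and scipy 1.17.1 were used.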

Additional observations from a re-analysis of the deposited data

How the results depend on the processing

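Of 50 values under alternatives for 8 counts, 37 stayed within 1.5 times the value given. The death receptor counts were the same at all distances from inside the gene to 100 kb and under 3 other definitions of a shared peak. Most of the values that stayed were these counts at other distances. They could not change up to 100 kb, since every peak counted lay inside a gene and the next peak was 134 kb from PIDD1. With only peaks scoring at least 100 (392 R273H peaks, 19.5% of that list, and 566 wildtype peaks, 27.5%), 0 R273H peaks, 0 genes with an R273H peak and 0 shared peaks of either list remained, since the TNFRSF10B peak scored 76.23 in the R273H list; 1 wildtype peak and 1 gene with a wildtype peak remained. With a filter at the joint median score of 63.4 there was likewise 1 wildtype peak at 1 gene, without TNFRSF10C. When a peak counted for every member within 50 kb, 2 genes had an R273H peak. Extrinsic pathway genes with an R273H peak numbered 2 of 32 within 100 kb. Those with a wildtype peak numbered 3 of 32 within 10 kb (9.38%), beside 4.83% of protein-coding genes. They numbered 10 within 100 kb and 0 with peaks scoring at least 100. Shares over all protein-coding genes were not computed at 100 kb or under that filter, so those counts have nothing to be set against. No paired analysis was possible because each genotype had 1 ChIP library and no test was run; for the same reason no replicate could be left out. Read depth, unknown here, limits what the absence of a peak shows.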
